A study of Mus musculus with 14 samples.

Results

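The genes described here set the pace of the G1 phase of the cell cycle, and the data are the open chromatin in and around them. The set holds 10 mouse genes: the kinases Cdk6 and Cdk4, the D-type cyclins Ccnd1, Ccnd2 and Ccnd3, and the inhibitors Cdkn1a, Cdkn1b, Cdkn2a, Cdkn2b and Cdkn2c. A region was a member if its mean value over the libraries was at least 50 and it overlapped the RefSeq bounds of one of these genes extended by 25 kb on each side. The rule gave 102 regions of 59189 regions at or above that mean, which were themselves 8.39% of the 705361 regions in the table. Of the 102 regions, 53 overlapped a member gene itself and the others lay in its flanks, often inside a neighbouring gene. The windows held 409 regions of any mean value. The members closest to the limit had means of 50.29, 50.57 and 51.07, and the regions just under it had 49.14, 49.29 and 49.79.

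Accessibility was measured by ATAC-seq, in which a transposase cuts open DNA and leaves sequencing adapters behind, in 14 libraries of C57BL/6J bone marrow cells. The sorted cells were MPP3, a multipotent progenitor with a myeloid bias, and long-term haematopoietic stem cells (LT-HSC), the mostly resting cells that sustain blood formation. Young donors were Dnmt3a-flR878H/+, Npm1-frt/+, Dnmt3a-flR878H/+ with Npm1-frt/+, or WT (Mx-Cre), and the groups are called Dnmt3a, Npm1, Dnmt3a;Npm1 (the combined genotype) and WT below. The titles write the Npm1 allele as Npm1c, and 1 library's title names no cell type, for which the description gave MPP3. Each recipient, young, irradiated and marked by CD45.1, was given 1000000 unfractionated marrow cells. Poly(I:C), which induces the Mx1 promoter that drives Mx-Cre, followed at 4 weeks, tamoxifen 4 weeks later and harvest after another 4 weeks, in WT recipients as well. The libraries were 2 each of MPP3 Dnmt3a, MPP3 Npm1, MPP3 WT, LT-HSC Npm1, LT-HSC with the combined genotype and LT-HSC WT, and 1 each of MPP3 with the combined genotype and of LT-HSC Dnmt3a. The labels do not say that the 2 libraries of a group came from separate animals, so a p-value measures the spread between libraries, which may be technical. The labels name Cre only for WT, and the share of sorted cells that carried a recombined allele was not analysed here.

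In G1, D-type cyclins bind Cdk4 or Cdk6, and the active kinase phosphorylates the retinoblastoma protein, which releases E2F transcription factors. The INK4 inhibitors encoded by Cdkn2a, Cdkn2b and Cdkn2c bind the kinases and keep the cyclins off. The CIP/KIP inhibitors p21 (Cdkn1a) and p27 (Cdkn1b) bind cyclin and kinase complexes and also block Cdk2. Cdkn2a has a pair of promoters: the transcript from the upstream promoter encodes p19Arf, which stabilises p53, and that from the downstream promoter encodes p16Ink4a. In human blood, the level of CDK6 is known to set how fast stem cells leave quiescence.

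RefSeq start windows (GRCm38.p6, 250 bases before to 50 after a start) were found for 8 of the 10 genes, and Ccnd1 and Ccnd2 had no entry. Those of Cdkn2a and Cdkn1a are shown because 1 start of each gene lay in a member region and another did not, and that of Cdk6 because its regions are described singly. Both strands were searched for 8 motifs, and capitals mark the matches. They were the GC box with the letters GGGCGG, the E2F motif with TTTNNCGC, the ETS motif with CCGGAA, the CCAAT box, the E-box with CACGTG, the AP-1 motif with TGANTCA, the GATA motif with AGATAA and the TATA box with TATAAA. Among all 32851 windows of the table, 35.66% held the GC box, 5.17% the E2F letters, 14.9% the ETS letters, 37.41% CCAAT, 7.15% the E-box, 7.81% the AP-1 letters, 11.18% AGATAA and 13.62% TATAAA.
Cdk6 start, chr5:3343643-3343942, plus strand: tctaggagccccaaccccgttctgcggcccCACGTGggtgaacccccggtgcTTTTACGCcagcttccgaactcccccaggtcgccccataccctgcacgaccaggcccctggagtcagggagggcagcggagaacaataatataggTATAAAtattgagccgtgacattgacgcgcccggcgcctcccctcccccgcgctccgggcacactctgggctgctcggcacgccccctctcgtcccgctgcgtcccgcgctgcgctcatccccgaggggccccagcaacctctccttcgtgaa
Cdkn2a upstream start, chr4:89294570-89294869, minus strand: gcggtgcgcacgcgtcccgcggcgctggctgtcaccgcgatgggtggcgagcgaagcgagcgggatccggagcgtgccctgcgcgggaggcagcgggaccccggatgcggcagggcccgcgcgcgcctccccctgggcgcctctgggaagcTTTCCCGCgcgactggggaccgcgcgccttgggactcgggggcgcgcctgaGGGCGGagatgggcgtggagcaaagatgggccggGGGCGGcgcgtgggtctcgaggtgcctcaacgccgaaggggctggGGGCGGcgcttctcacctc
Cdkn2a downstream start, chr4:89282143-89282442, minus strand: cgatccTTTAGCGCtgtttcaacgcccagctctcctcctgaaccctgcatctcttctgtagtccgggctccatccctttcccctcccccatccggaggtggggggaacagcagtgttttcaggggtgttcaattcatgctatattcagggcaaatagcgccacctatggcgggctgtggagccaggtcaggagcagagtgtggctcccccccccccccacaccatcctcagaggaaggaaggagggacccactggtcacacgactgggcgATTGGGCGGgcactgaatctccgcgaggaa
Cdkn1a first start, chr17:29090729-29091028, plus strand: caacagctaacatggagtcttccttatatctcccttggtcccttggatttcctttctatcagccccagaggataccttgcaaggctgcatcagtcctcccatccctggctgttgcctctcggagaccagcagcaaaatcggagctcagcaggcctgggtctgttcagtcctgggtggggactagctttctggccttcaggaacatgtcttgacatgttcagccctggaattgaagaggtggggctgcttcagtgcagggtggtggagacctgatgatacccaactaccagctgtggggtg
Cdkn1a second start, chr17:29093519-29093818, plus strand: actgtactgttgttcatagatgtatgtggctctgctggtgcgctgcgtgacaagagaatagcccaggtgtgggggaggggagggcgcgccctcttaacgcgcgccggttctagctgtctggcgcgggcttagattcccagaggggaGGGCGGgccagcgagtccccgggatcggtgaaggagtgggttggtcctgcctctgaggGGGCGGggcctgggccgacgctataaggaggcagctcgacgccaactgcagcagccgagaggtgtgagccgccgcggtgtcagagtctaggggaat

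The Cdk6 window held 1 E-box, 1 match to the E2F letters and 1 TATAAA, and no GC box. It was 66.7% G and C, and the region over it had a mean value of 159.2. The Cdkn2a starts differed in their regions. The upstream start, with 77.0% G and C, 45 CpG, 3 GC boxes and 1 match to the E2F letters, lay in a member region of mean 229.9, and the downstream start, with 60.3% G and C, 12 CpG, 1 GC box, 1 match to the E2F letters and 1 CCAAT that overlaps the GC box, lay in a region of mean 42.6, below the limit. The first Cdkn1a start, with 2 CpG and no match to any of the 8 motifs, overlapped no region at all, while the second, with 23 CpG and 2 GC boxes, lay in a region of mean 688.6. Both Ccnd3 starts in the table lay in member regions, of mean 212.8 and 483.9. A match describes letters in a window of 300 bases and does not show binding.

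Deposited values are whole numbers that had been scaled per library, and all levels below are these values after a further scaling by trimmed-mean factors (normalised values). Differences are log2 differences of normalised values plus 4, with limma's moderated standard error, and calls use an adjusted p (two-sided, Benjamini-Hochberg over all 59189 regions) under 0.05. Library totals were 14683769 to 28748205, and the depth in reads is unknown. The share of a library's signal that fell in the tested regions ran from 25.5% to 63.1%, and the lowest were both LT-HSC Npm1 libraries (29.4% and 25.5%), followed by both MPP3 Dnmt3a libraries (31.8% and 37.1%). The correlation of log2 values between the 2 libraries of a group was 0.543 to 0.918. Regions of the 12 LT-HSC marker genes summed to 13388 to 15855 in MPP3 libraries and 13742 to 18768 in LT-HSC libraries. Regions of the 11 MPP3 and myeloid marker genes summed to 11959 to 15850 in MPP3 libraries and 10466 to 12506 in LT-HSC libraries. Both lists overlapped between the cell types only through LT-HSC Npm1, which gave 13742 to 15688 for the LT-HSC list and 10807 to 12506 for the other. The remaining LT-HSC libraries gave 17032 to 18768 and 10466 to 11454, apart from all MPP3 libraries. The median log2 differences of the 2 lists were -0.17 and 0.28 for MPP3 minus LT-HSC. Of their regions, 1 of 120 was called lower and 3 of 89 were called higher in MPP3.

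Cdk6 had 19 member regions, 17 of them inside the gene, and no one of them was called in the comparison of MPP3 with LT-HSC over the 4 genotypes. That comparison called 82 of all tested regions (0.139%) and 0 of the 102 members by limma, and 12 members had an unadjusted p under 0.05, 9 higher (7.35% of all regions) and 3 lower (5.19%). In 0 members did all 7 MPP3 libraries lie on one side of all 7 LT-HSC libraries, against 0.441% of all regions higher and 0.211% lower. In bulk cells, a change in the share of cells with an open region and a change in its openness per cell cannot be told apart. Of the 19 Cdk6 regions, 15 had a positive difference and 3 of these an unadjusted p under 0.05. Over all tested regions, 52.5% had a positive difference, and for members with a mean of 200 or more the share negative was 29.4%, against 26.8% of all tested regions of that mean.

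Along the gene, 4 regions lay around the start window, between -3.0 and 0.7 kb of it. The first, chr5:3340904-3341702, which also overlaps Gm36470, ran from 112.1 over a median of 184.4 to 281.8 in MPP3 libraries and from 29.8 over 143.7 to 202.8 in LT-HSC libraries (0.67, SE 0.26, adjusted p = 0.305). The region over the start window itself, chr5:3343563-3343910, ran from 63.9 over 159.1 to 199.4 in MPP3 and from 47.4 over 115.3 to 162.8 in LT-HSC (0.31, SE 0.30, adjusted p = 0.697). The regions centred 0.9 kb before and 0.4 kb after the start had medians of 242.2 and 215.8 in MPP3 and 157.5 and 181.9 in LT-HSC, with differences of 0.38 and 0.34. In all 4, the MPP3 and LT-HSC libraries overlapped.

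Between the start and the far end of the gene, 3 weak regions stood alone. Those centred 19.5, 40.1 and 117.1 kb from the start had medians of 64.2, 73.2 and 62.2 in MPP3 and 79.0, 55.9 and 41.4 in LT-HSC. Their differences were 0.37, 0.81 and 0.41, none of them called.

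A group of 6 regions lay 147.2 to 159.4 kb downstream, chr5:3491079-3503316, and held the Cdk6 region of lowest p between the cell types. That region, the strongest of the group by median in either cell type, chr5:3501346-3503316, ran from 193.1 over 310.9 to 373.8 in MPP3 and from 76.1 over 165.5 to 221.4 in LT-HSC. Its difference was 0.99 (SE 0.23, adjusted p = 0.0799), which missed the threshold, and only the lowest MPP3 library, Dnmt3a A, fell inside the LT-HSC range. Without MPP3 Dnmt3a A it passed, with 1.08 and an adjusted p of 0.0383, and without both LT-HSC Npm1 libraries it was 0.79 (adjusted p = 0.329).

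In the same group, chr5:3497098-3498263 ran from 11.4 over 245.5 to 276.6 in MPP3 and from 30.1 over 102.0 to 173.8 in LT-HSC (0.76, SE 0.41, adjusted p = 0.451). In MPP3 the value of 11.4 belonged to the Dnmt3a A library, and the other 6 libraries all had 184.7 or more, above every LT-HSC library. The other 4 regions of this group had medians of 79.5, 57.3, 89.9 and 65.7 in MPP3 and 35.1, 34.2, 99.3 and 41.7 in LT-HSC, from the nearest to the farthest, with differences of 0.78, 0.79, 0.21 and 0.03. Summed per library, the 6 regions gave 384.7, 912.1 and 985.7 (lowest, median, highest) in MPP3 and 376.1, 505.2 and 578.9 in LT-HSC. Divided by the sum of the 4 start regions, this was 0.84 to 1.32 in MPP3 (median 1.0) and 0.55 to 1.65 in LT-HSC (median 0.8), and the highest LT-HSC ratios were those of the 2 Npm1 libraries, 1.2 and 1.65. The group was delimited after its values were seen, so these sums are a description.

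Beyond it, the last 4 regions inside Cdk6, centred 169.1, 172.9, 183.7 and 186.2 kb from the start, had medians of 59.1, 57.4, 49.6 and 64.2 in MPP3 and 92.1, 72.8, 64.0 and 57.6 in LT-HSC. Their differences were -0.48, -0.36, -0.40 and 0.01. Of the 2 regions past the gene, that at 193.3 kb had a difference of -0.44 and that at 200.1 kb, inside Fam133b, 0.30. So the 13 regions up to the end of the downstream group all had positive differences (0.03 to 0.99). Of the 6 after it, 2 were positive and 4 negative (-0.48 to 0.30), with no region called on either side. As the group was delimited after its values were seen, this split is a description. Each difference averages those of 4 genotypes, so a lone library weighs as much as a group of 2. At 19.5 and 150.8 kb the MPP3 median was below the LT-HSC median (64.2 against 79.0 and 89.9 against 99.3). In the rest of the 13 it was above.

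**Figure D1:**
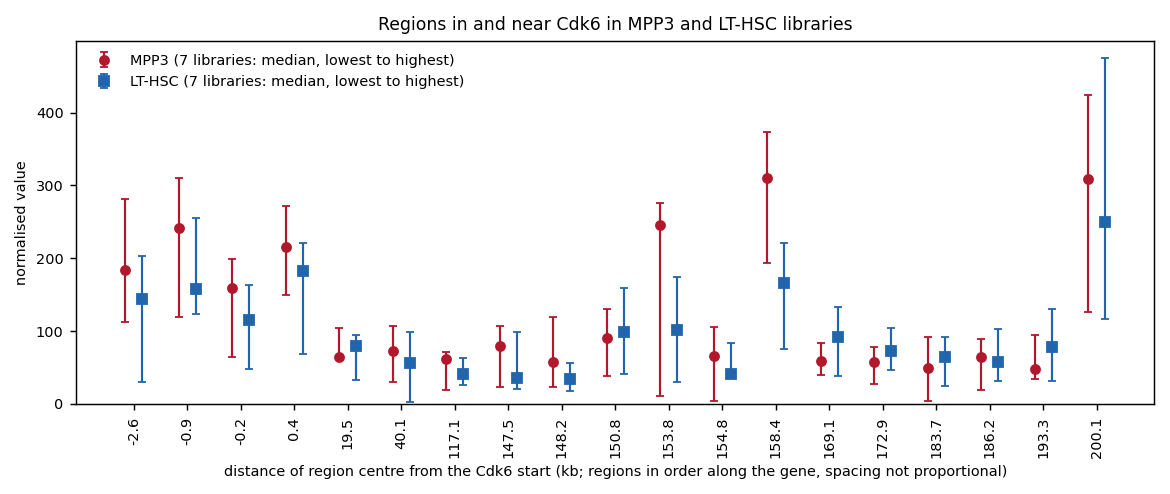
Normalised value (y axis) of the 19 regions in and near Cdk6, placed in order along the gene and labelled by the distance of their centre from the start in kb (x axis). Points are medians of 7 MPP3 (circles) and 7 LT-HSC libraries (squares), and bars run from the lowest to the highest library; at 153.8 and 158.4 kb the MPP3 medians are 245.5 and 310.9 against LT-HSC medians of 102.0 and 165.5, and the bars overlap.

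Cdk4, the partner kinase, sits among close neighbours: of its 17 member regions only 2 lay in the gene and 14 in another gene. Its start region, chr10:127063008-127064201, ran from 308.6 over 415.0 to 624.4 in MPP3 and from 191.6 over 345.3 to 451.3 in LT-HSC (0.47, SE 0.19, adjusted p = 0.325). The member region with the lowest p among those lower in MPP3 lay in Agap2, which encodes an Arf GTPase-activating protein, at chr10:127077930-127080836. It ran from 67.9 over 115.0 to 237.4 in MPP3 and from 112.4 over 306.8 to 496.6 in LT-HSC (-1.13, SE 0.30, adjusted p = 0.117), with overlap at the LT-HSC WT A library.

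Among the cyclins, the Ccnd2 region across the upper bound of the gene, chr6:127149399-127153023, was the strongest member region by deposited mean (955.2). It ran from 706.1 over 816.6 to 1065.3 in MPP3 and from 319.4 over 962.3 to 1121.0 in LT-HSC (0.08, SE 0.17, adjusted p = 0.890). A region 10492 bp past that bound and inside 9330179D12Rik, chr6:127162680-127163355, had medians of 112.4 in MPP3 and 49.7 in LT-HSC (0.92, SE 0.30, adjusted p = 0.210). The highest region inside Ccnd1, chr7:144937006-144938531, had medians of 229.7 in MPP3 and 180.9 in LT-HSC (0.22, SE 0.22, adjusted p = 0.711). At the second Ccnd3 start, chr17:47593102-47594749, the medians were 404.3 in MPP3 and 482.4 in LT-HSC (-0.03, SE 0.21, adjusted p = 0.970). The Ccnd3 region that also overlaps Bysl, chr17:47599655-47600561, had medians of 78.4 in MPP3 and 129.0 in LT-HSC (-0.65, SE 0.26, adjusted p = 0.307).

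Among the inhibitors, the lowest p of any member belonged to a region in Rab44, 13024 bp past Cdkn1a (chr17:29113746-29114455). It ran from 80.7 over 93.7 to 206.4 in MPP3 and from 16.9 over 35.3 to 125.8 in LT-HSC (1.62, SE 0.34), and its adjusted p of 0.0545 missed the threshold. It passed without LT-HSC WT A (adjusted p = 0.0417), either combined-genotype LT-HSC library (0.0499 and 0.0331) or either MPP3 Dnmt3a library (0.0404 and 0.0453). Its r with the share of library signal in tested regions was 0.1 over the 14 libraries, as a description. A region in no gene just before it, chr17:29111260-29112137, had medians of 180.2 in MPP3 and 109.2 in LT-HSC (0.99, SE 0.27, adjusted p = 0.137). The Cdkn1a start region itself had medians of 714.2 in MPP3 and 545.6 in LT-HSC, and the Cdkn1b start region 497.9 in MPP3 and 391.1 in LT-HSC, with differences of 0.32 and 0.34. At Cdkn2c the start region had medians of 790.7 in MPP3 and 576.9 in LT-HSC (0.42, SE 0.20, adjusted p = 0.384). Cdkn2a and Cdkn2b share their only 2 member regions: that over the upstream Cdkn2a start had medians of 239.0 in MPP3 and 196.0 in LT-HSC (0.20), and that over the Cdkn2b start 122.0 in MPP3 and 137.4 in LT-HSC (-0.39), neither of them called.

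Within WT alone, 0 of all 59189 regions (0.0%) and 0 members were called between MPP3 and LT-HSC by limma, and 8 members, with 3152 regions in all (5.33%), had an unadjusted p under 0.05. The largest positive member difference was inside Cdk6, at chr5:3497098-3498263, with 276.6 and 257.8 in MPP3 WT and 102.0 and 30.1 in LT-HSC WT (2.17, SE 0.73, adjusted p = 0.703). The Rab44 region near Cdkn1a had 80.7 and 200.5 in MPP3 WT and 35.3 and 19.1 in LT-HSC WT (2.13, SE 0.60, adjusted p = 0.511). In both regions the WT libraries of the cell types did not overlap, as in 17.2% of all tested regions with MPP3 WT higher and 17.2% with it lower.

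The 10 genes were also compared per length, each by its start region or, for Ccnd1 and Ccnd2, by the highest region inside the gene. In MPP3 the median normalised value per kb was highest at Cdk6 (457.2, in a region of only 348 bp), followed by Cdk4 (347.6), Cdkn2c (328.8), Cdkn1b (288.6), Ccnd3 (245.3), Cdkn1a (233.0), Ccnd2 (225.3), Ccnd1 (150.5), Cdkn2a (150.1) and Cdkn2b (132.5). In LT-HSC it was 331.3 at Cdk6, 292.7 at Ccnd3, 289.2 at Cdk4, 265.5 at Ccnd2, 239.9 at Cdkn2c, 226.7 at Cdkn1b, 178.0 at Cdkn1a, 149.2 at Cdkn2b, 123.1 at Cdkn2a and 118.5 at Ccnd1. Neighbours in either order overlapped over libraries, except Ccnd2 and Ccnd1 in MPP3, where all Ccnd2 values per kb were higher.

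**Figure D2:**
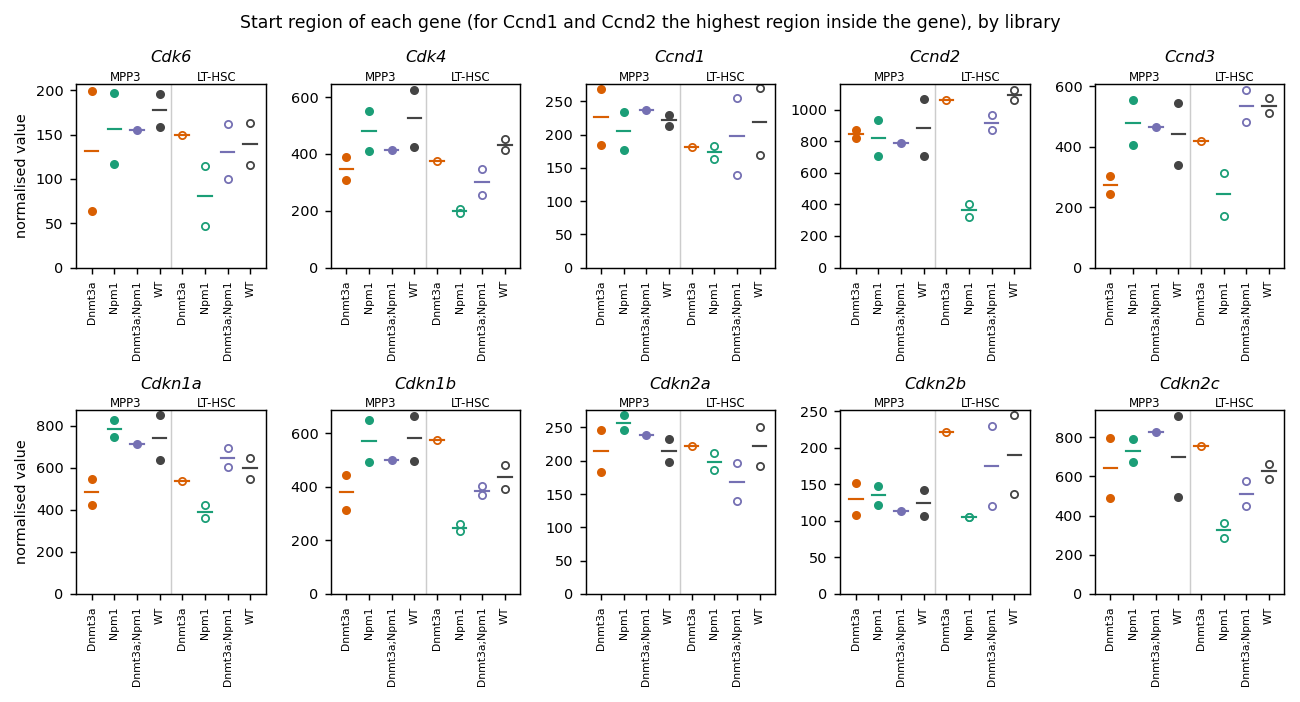
Normalised value (y axis, from 0) of the start region of each gene, or for Ccnd1 and Ccnd2 of the region of highest mean inside the gene, in every library. Filled circles are MPP3 libraries, open circles LT-HSC libraries, and short lines are group means; the 2 LT-HSC Npm1 libraries lie at 319.4 and 402.9 for Ccnd2 against 1121.0 and 1061.1 in LT-HSC WT.

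Relative to WT, 4 member regions fell in LT-HSC Npm1 and none rose. The comparison called 3501 of all tested regions (5.91%; 1.4% higher and 4.52% lower), so 4 of 102 members is near that share. Only 1 of the 4 lay in a member gene. It was the Ccnd2 region across the gene's upper bound, which also overlaps 9330179D12Rik, with 319.4 and 402.9 in LT-HSC Npm1, against 1121.0 and 1061.1 in LT-HSC WT (-1.59, SE 0.31, adjusted p = 0.0129). Both Npm1 libraries were below all other 12 libraries, of which the lowest had 706.1.

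The other 3 lay in neighbouring genes. Near Cdkn2c, a region in Faf1, which encodes Fas-associated factor, chr4:109675953-109677573, had 155.6 and 207.4 in LT-HSC Npm1, against 790.8 and 825.4 in LT-HSC WT (-2.14, SE 0.36, adjusted p = 0.0126). Near Ccnd3, a region in Taf8, a subunit of the general transcription factor TFIID, chr17:47500998-47502854, had 334.3 and 219.2 in LT-HSC Npm1, against 568.9 and 663.9 in LT-HSC WT (-1.17, SE 0.33, adjusted p = 0.0415). Near Cdkn1b, a region in Gpr19, an orphan G protein-coupled receptor, chr6:134897454-134898868, had 258.2 and 136.3 in LT-HSC Npm1, against 497.7 and 419.2 in LT-HSC WT (-1.26, SE 0.36, adjusted p = 0.0430). The Faf1 region was called whichever single library was left out. The Ccnd2 region was not called without LT-HSC WT A (adjusted p = 0.092). The Taf8 region near Ccnd3 and the Gpr19 region near Cdkn1b lost the call without LT-HSC Npm1 B, either LT-HSC WT library, either combined-genotype LT-HSC library or either MPP3 Npm1 library, with adjusted p of 0.0501 to 0.335.

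The 10 regions that stand for the genes (the start region, or for Ccnd1 and Ccnd2 the highest inside the gene) were all lower in LT-HSC Npm1, with a median of -0.83 and 5 at an unadjusted p under 0.05, but 79.1% of the 11540 tested start regions of all genes were also lower, with a median of -0.702. Cdk4 had 205.2 and 191.6 in LT-HSC Npm1, against 413.1 and 451.3 in LT-HSC WT (-1.11, SE 0.34, adjusted p = 0.0574). Ccnd3 had 314.5 and 169.9 at its second start in LT-HSC Npm1, against 511.0 and 560.6 in LT-HSC WT (-1.20, SE 0.37, adjusted p = 0.0546). In both genes both LT-HSC Npm1 libraries lay below both WT libraries, as in 28.6% of all tested regions. The adjusted p missed the threshold in both. The libraries were also apart at Cdkn2c, Cdkn1b and Cdkn1a, described next. At Cdkn2c the values were 364.1 and 286.4 in LT-HSC Npm1, against 665.1 and 586.7 in LT-HSC WT (-0.94, SE 0.35, adjusted p = 0.108), and at Cdkn1b 261.5 and 233.1 in LT-HSC Npm1, against 479.7 and 391.1 in LT-HSC WT (-0.80, SE 0.33, adjusted p = 0.150). Cdkn1a had 360.8 and 420.7 in LT-HSC Npm1, against 647.1 and 545.6 in LT-HSC WT (-0.60, SE 0.32, adjusted p = 0.255). The Cdk6 start region was barely apart, with 114.2 and 47.4 in LT-HSC Npm1, against 162.8 and 115.3 in LT-HSC WT (-0.86, SE 0.53, adjusted p = 0.346). Of the 19 Cdk6 regions, 10 were higher and 9 lower in LT-HSC Npm1, and none was called. The lowest p of these was at chr5:3340904-3341702, before the start window but overlapping the gene's RefSeq bounds. That region had 29.8 and 55.3 in LT-HSC Npm1, against 202.8 and 76.2 in LT-HSC WT (-1.52, SE 0.47, adjusted p = 0.0573). Among the 10 regions that stand for the genes, the smallest differences were at the upstream Cdkn2a start and in Ccnd1. The upstream Cdkn2a start had 185.4 and 211.3 in LT-HSC Npm1, against 250.3 and 192.6 in LT-HSC WT (-0.15). The Ccnd1 region had 182.1 and 163.9 in LT-HSC Npm1, against 269.4 and 168.5 in LT-HSC WT (-0.30).

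The sign of the member differences went with the level of the region, as it did over the whole table. Of 34 members with a mean of 200 or more, 32 were lower in LT-HSC Npm1 (median -0.75), and of all tested regions of that mean 91.3% were lower (median -0.84). Of 44 members with a mean of 50 to 100, 29 were higher and 34.1% lower (median 0.17). Of all tested regions of that mean, 30.9% were lower (median 0.44). The weak members that stood higher included 1 in Agap2 near Cdk4, chr10:127080986-127082041, with 129.1 and 104.7 in LT-HSC Npm1, against 4.6 and 43.1 in LT-HSC WT (2.58, SE 0.90, adjusted p = 0.0847), which passed without the combined-genotype LT-HSC B library (2.57, adjusted p = 0.0478). Another was in Ccnd1, chr7:144935393-144936923, with 201.9 and 134.3 in LT-HSC Npm1, against 47.5 and 31.1 in LT-HSC WT (1.99, SE 0.72, adjusted p = 0.0946). The Rab44 region near Cdkn1a had 125.8 and 71.1 in LT-HSC Npm1, against 35.3 and 19.1 in LT-HSC WT (1.71, SE 0.60, adjusted p = 0.0882). Over all members, 28 had an unadjusted p under 0.05, 6 higher and 22 lower, and over all tested regions 8.68% were higher and 14.6% lower at that level. Of the members, 42.2% had both LT-HSC Npm1 libraries below both WT libraries and 16.7% above, against 28.6% and 25.4% of all tested regions.

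**Figure D3:**
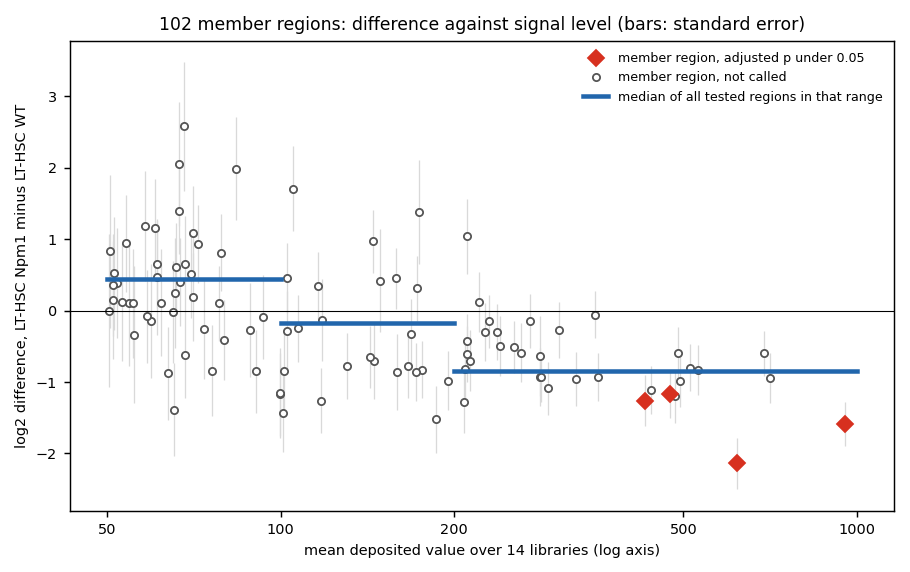
Log2 difference, LT-HSC Npm1 minus LT-HSC WT (y axis), of the 102 member regions against their mean deposited value over 14 libraries (x axis, log scale), with standard errors as bars; diamonds are the 4 regions called. Thick lines give the median of all tested regions with a mean of 50 to 100, 100 to 200, and 200 or more (0.44, -0.17 and -0.84), drawn across that range.

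The level of these regions also moved with the share of a library's signal in tested regions, which was 29.4% and 25.5% in LT-HSC Npm1, against 56.5% and 40.7% in LT-HSC WT. Over the 14 libraries, r between that share and the normalised value was 0.718 for the Ccnd2 region, 0.694 for the Faf1 region, 0.719 for the Taf8 region and 0.872 for the Gpr19 region, as a description across libraries that also differ in group. With that share as a covariate, 0 of all regions and 0 members were called, and with cyclic loess normalisation 93 of all regions and 0 members. The differences of the Ccnd2 region were then -1.20 and -0.39, and those of the Faf1 region near Cdkn2c -1.77 and -1.15. Scaling by library totals instead gave 23 member calls, all lower, with a median of all regions of -0.57. Summed marker regions differed between the groups as well: the LT-HSC list gave 13742 to 15688 in LT-HSC Npm1, against 18418 to 18605 in LT-HSC WT, the megakaryocyte list 4859 to 5677 in LT-HSC Npm1, against 7369 to 7395 in LT-HSC WT, and the erythroid list 2400 to 2807 in LT-HSC Npm1, against 3185 to 4330 in LT-HSC WT. The T cell list gave 1422 to 1670 in LT-HSC Npm1, against 1980 to 2339 in LT-HSC WT. Sums weigh strong regions most, and 91.3% of all tested regions with a mean of 200 or more were lower. Over regions of the LT-HSC, megakaryocyte, erythroid and T cell lists, the median differences were -0.16, -0.38, -0.54 and -0.3. Those of the MPP3 and myeloid, B cell, mast cell and niche lists were 0.49, 0.21, -0.16 and -0.14. In the MPP3 and myeloid list, 61 of 89 regions had a positive difference. Over all tested regions the median was 0.01. The B cell, mast cell and niche lists overlapped between the groups, and the MPP3 and myeloid list gave 10807 to 12506 in LT-HSC Npm1, against 10900 to 11454 in LT-HSC WT. The part of these in the member differences was not tested.

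**Figure D4:**
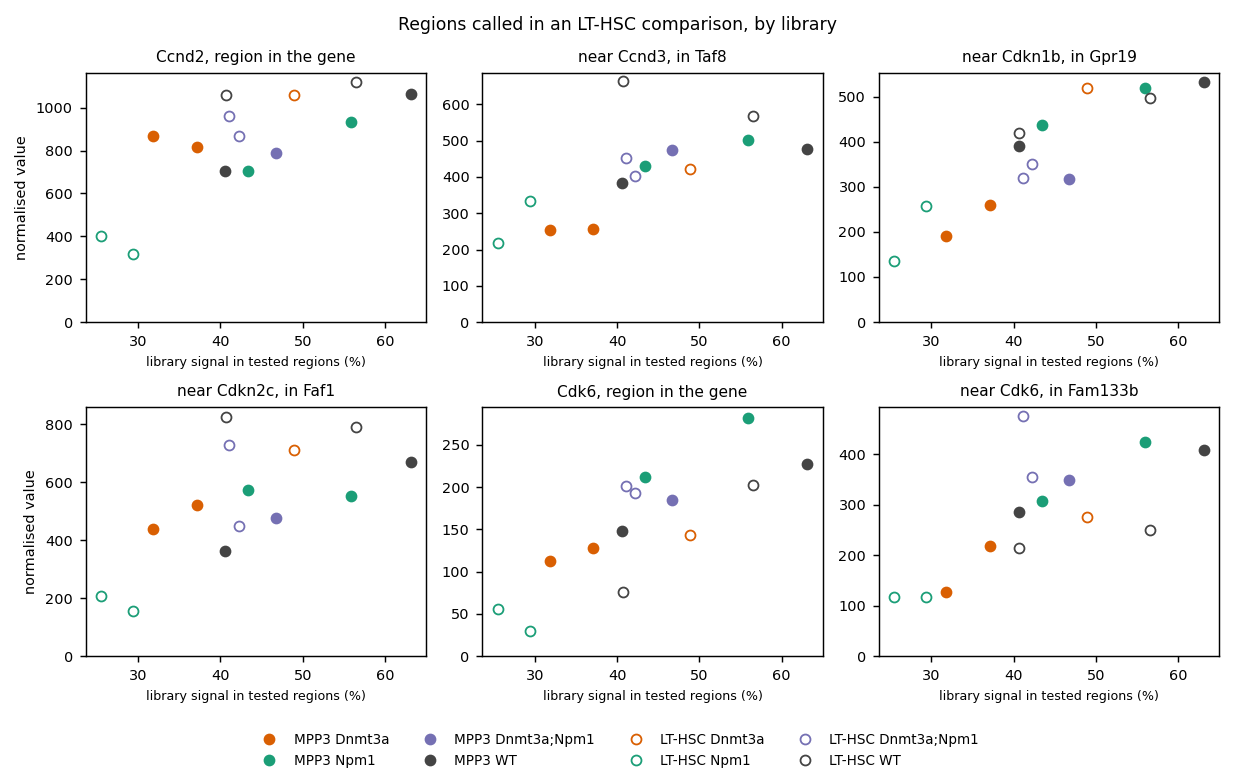
Normalised value (y axis, from 0) of the 6 member regions called in an LT-HSC comparison, against the percentage of each library's signal that lies in tested regions (x axis), with 1 point per library. Filled circles are MPP3 and open circles LT-HSC libraries, coloured by genotype; the LT-HSC Npm1 libraries, at 29.4% and 25.5%, include the lowest value in each of the 6 regions.

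When LT-HSC carried the Dnmt3a allele as well as the Npm1 allele, 4 member regions were higher than in LT-HSC Npm1. This comparison was added after the data were seen and shares the LT-HSC Npm1 libraries with the one before. It called 1007 of all tested regions (1.7%, with 1.5% higher and 0.204% lower). Of 34 members with a mean of 200 or more, 3 were called and 29 were higher. Of all 12446 tested regions of that mean, 811 were called and 11102 were higher. The other call was 1 of 24 members with a mean of 100 to 200, against 109 of all 12683 regions of that mean. The Ccnd2 region had 870.4 and 962.3 with the combined genotype and 319.4 and 402.9 in LT-HSC Npm1 (1.34, SE 0.31, adjusted p = 0.0383). The Faf1 region near Cdkn2c had 448.9 and 727.4 with the combined genotype and 155.6 and 207.4 in LT-HSC Npm1 (1.65, SE 0.36, adjusted p = 0.0312). Near the Cdk6 start, chr5:3340904-3341702 had 193.0 and 200.9 with the combined genotype and 29.8 and 55.3 in LT-HSC Npm1 (2.17, SE 0.47, adjusted p = 0.0332). At the far side of Cdk6, the Fam133b region, chr5:3543489-3544505, had 355.5 and 475.1 with the combined genotype and 117.5 and 116.5 in LT-HSC Npm1 (1.78, SE 0.38, adjusted p = 0.0312). Over all members, 16 had an unadjusted p under 0.05, 14 higher (12.4% of all regions) and 2 lower (6.78%). All 4 lost the call when either LT-HSC Npm1 library, LT-HSC WT A, the combined-genotype B library or MPP3 Npm1 B was left out, with adjusted p of 0.0515 to 0.305. The Ccnd2 region also lost it without LT-HSC WT B or MPP3 Npm1 A (0.0578 and 0.0588), and the region near the Cdk6 start without MPP3 Npm1 A (0.0508). The share of signal in tested regions was 42.2% and 41.1% with the combined genotype and 29.4% and 25.5% in LT-HSC Npm1, and with it as a covariate no member was called. Summed marker regions were higher without overlap for the LT-HSC list (17032 to 18254 with the combined genotype, 13742 to 15688 in LT-HSC Npm1), the T cell list (2221 to 2236 with the combined genotype, 1422 to 1670 in LT-HSC Npm1) and the erythroid list (2835 to 3534 with the combined genotype, 2400 to 2807 in LT-HSC Npm1). They were lower without overlap for the MPP3 and myeloid list (10466 to 10704 with the combined genotype, 10807 to 12506 in LT-HSC Npm1) and the B cell list (4379 to 4727 with the combined genotype, 4861 to 5460 in LT-HSC Npm1). The megakaryocyte, mast cell and niche lists overlapped, with median differences over regions of 0.13, 0.43 and -0.41. The median differences over regions of the LT-HSC, T cell and erythroid lists were 0.15, 0.39 and 0.25. Those of the MPP3 and myeloid and the B cell lists were -0.52 and -0.55, against 0.01 over all tested regions. The part of the share of signal and of these lists in the member differences was not tested.

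Against WT, LT-HSC with the combined genotype gave 2 calls over all regions (0.00338%) and 0 among members by limma, with 4 members at an unadjusted p under 0.05 (7.15% of all regions). The Ccnd2 region had 870.4 and 962.3 with the combined genotype and 1121.0 and 1061.1 in LT-HSC WT (-0.25, SE 0.31, adjusted p = 0.912), and the Faf1 region 448.9 and 727.4 with the combined genotype and 790.8 and 825.4 in LT-HSC WT (-0.50, SE 0.36, adjusted p = 0.815). The lowest member p belonged to a second Ccnd2 region, chr6:127147616-127148283 (-1.56, SE 0.58, adjusted p = 0.609). LT-HSC Dnmt3a, with 1 library, gave 0 calls over all regions (0.0%) and among members by limma, and 1 member at an unadjusted p under 0.05 (1.83% of all regions). That 1 was the weak Agap2 region near Cdk4, chr10:127080986-127082041, with 111.6 in LT-HSC Dnmt3a and 4.6 and 43.1 in LT-HSC WT (2.52, SE 1.10, adjusted p = 1.0).

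In MPP3, no member was called for any genotype against MPP3 WT. For MPP3 Dnmt3a, limma called 0 of all regions (0.0%), and 14 members had an unadjusted p under 0.05, 1 higher and 13 lower, beside 4.3% of all regions higher and 5.82% lower. Positive differences made up 47.6% of all tested regions, and of all gene start regions 74.9% were lower. Of the 19 Cdk6 regions 16 were lower, and 3 of these had an unadjusted p under 0.05, 1 of them in Fam133b, past the gene. All 3 Cdkn2c regions were lower as well, but by differences of -0.99, -0.11 and -0.04, only the first at an unadjusted p under 0.05. Another of the 3 Cdk6 regions, chr5:3498361-3499111, had 4.3 in MPP3 Dnmt3a A and 38.3 in MPP3 Dnmt3a B, against 65.7 and 74.3 in MPP3 WT. The lowest p was at the Cdk6 downstream region chr5:3497098-3498263, with 11.4 and 184.7 in MPP3 Dnmt3a and 276.6 and 257.8 in MPP3 WT (-2.33, SE 0.73, adjusted p = 0.358). The value of 11.4 decides this difference: without that library (MPP3 Dnmt3a A) it was -0.52 (adjusted p = 0.745), and without the other (B) it was -4.15 (adjusted p = 0.00221). The Gpr19 region near Cdkn1b had 190.2 and 259.0 in MPP3 Dnmt3a and 390.7 and 532.1 in MPP3 WT (-1.03, SE 0.36, adjusted p = 0.391). Inside Cdkn1b, chr6:134922506-134923455 had 18.5 and 57.4 in MPP3 Dnmt3a and 116.4 and 136.3 in MPP3 WT (-1.81, SE 0.63, adjusted p = 0.390). The share of signal in tested regions was 31.8% and 37.1% in MPP3 Dnmt3a and 40.6% and 63.1% in MPP3 WT. Summed regions of the MPP3 and myeloid marker list gave 11959 to 13796 in MPP3 Dnmt3a and 14263 to 15304 in MPP3 WT, without overlap. Of the 11 regions that stand for its genes, 10 were lower (median -0.62). Over all 89 regions of that list the median was -0.06. Of all tested regions with a mean of 200 or more, 81.7% were lower. The sums of the LT-HSC, B cell, T cell, erythroid, megakaryocyte, mast cell and niche lists overlapped between the groups. Their median differences over regions were 0.05, 0.6, -0.22, 0.14, 0.05, -0.1 and 0.27, against -0.04 over all tested regions. In the B cell list 26 of 36 regions were higher. The part of these in the member differences was not tested.

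MPP3 Npm1 and the single MPP3 library with the combined genotype gave 0 calls over all regions (0.0% each) and 0 members at an unadjusted p under 0.05, beside 68 (0.115%) and 283 (0.478%) regions in all. The Ccnd2 region had 706.1 and 935.1 in MPP3 Npm1, 790.2 with the combined genotype, and 706.6 and 1065.3 in MPP3 WT. The Faf1 region had 574.3 and 554.4 in MPP3 Npm1, 477.1 with the combined genotype, and 364.2 and 671.1 in MPP3 WT. At the Cdk6 downstream region chr5:3501346-3503316 the values were 373.8 and 345.2 in MPP3 Npm1, 282.5 with the combined genotype, and 296.2 and 363.9 in MPP3 WT. In each of these regions the MPP3 Npm1 and MPP3 WT libraries overlapped. The lone combined-genotype library lay within the MPP3 WT values at Ccnd2 and Faf1 and below both of them at the Cdk6 region.

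The Npm1 effect in MPP3 minus that in LT-HSC was tested directly and gave 0 calls over all regions (0.0%) and among members by limma, with 12 members at an unadjusted p under 0.05, 10 higher (7.94% of all regions) and 2 lower (3.14%). It was 2.33 for the Faf1 region (SE 0.50, adjusted p = 0.312) and 1.5 for the Ccnd2 region (SE 0.44, adjusted p = 0.315). So the lower values at these regions in LT-HSC Npm1 were not shown to differ from the Npm1 effect in MPP3 at the threshold used. The same test for the Dnmt3a effect (6 members at an unadjusted p under 0.05, 4.71% of all regions) and for the combined genotype (1 member, 2.05%) gave 0 calls over all regions (0.0% each), and each rests on a group of 1 library.

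Other genes of the cell cycle machinery were read from a list of 32 genes, with the E2F and Rb families, cyclins E, A and B, Cdk2, Cdk1, the Cdk-activating kinase, licensing factors, Cdkn2d and p53 with Mdm2. In LT-HSC Npm1, 10 of the 32 regions that stand for them were called lower and 0 higher, 30 had a negative difference, and the median was -0.99. Of all 11540 tested start regions, 1827 were called in this comparison and 79.1% were lower. The lowest p was at E2f5, an E2F factor (-2.08, SE 0.36, adjusted p = 0.0126), and next at Cdk1, the kinase of mitotic entry (-1.79, SE 0.36, adjusted p = 0.0129). Of the 2 with a positive difference, E2f2 had 0.72 (adjusted p = 0.334) and Tfdp2, an E2F partner, 0.10 (adjusted p = 0.942). With the combined genotype against LT-HSC Npm1, 5 were called higher and 0 lower, led by Cdk1 (2.19, SE 0.36, adjusted p = 0.0211) and E2f5 (1.95, SE 0.36, adjusted p = 0.0279). There, 620 of the 11540 start regions were called and 22.3% were lower. Between MPP3 and LT-HSC 27 of 32 were higher and 0 were called, with 6 at an unadjusted p under 0.05, and Cdk1 had the lowest p (0.69, SE 0.20, adjusted p = 0.159). Of all start regions, 7497 were higher in MPP3 and 3 were called.

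By Pearson's r of log2 values over the 14 libraries, the start regions most like that of Cdk6 among 11539 others were those of Wdr59 (0.958), Ncoa7 (0.955), Stxbp3 (0.944), Atxn7l3 (0.942) and Slc7a11 (0.938). These are the highest of many correlations over few libraries and are given as a description. The Cdk6 start region itself had an r of 0.726 with the share of signal in tested regions.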

How the data were processed

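Open chromatin was measured by ATAC-seq in 14 libraries of 8 groups. The deposited table gives 1 score per region and library on build mm10: whole numbers that the authors had scaled, since low values skip whole numbers in 8 libraries and show no gap in 6. The submitters' processing notes list, with no role, HOMER 4.10, R 3.6.0, DiffBind 2.12.0 and edgeR 3.26.4. The aligner, peak caller and scale factors are not given in the sources used here.

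Regions of row mean 50 or more were tested with limma 3.58.1 (R 4.3.3): trimmed-mean factors (trims 0.3 and 0.05), log2(value/factor + 4), 8 group means, robust trended prior variance, two-sided tests, adjusted within each of 12 comparisons. A lone library is assumed to vary like the other groups. Genes came from RefSeq (GRCm38.p6). The fit was tested on simulated data.

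The members, lists and tests were chosen with earlier results of these data known. Named were the 10 regions that stand for the genes, every Cdk6 region and called members. Per comparison, members of lowest p in each direction were also named, with the Ccnd2 and Faf1 regions throughout. Neither replicate letters nor enrichment entered the main model. Alternatives were other pseudocounts, filters, scalings, covariates, blocks and libraries left out.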

Additional observations from a re-analysis of the deposited data

How the results depend on the processing

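No region named for its call or its p in a comparison changed sign there under any alternative run. Of the values of these regions under alternatives, 1158 stayed on their side of the threshold, 68 lost it and 12 gained it. For LT-HSC Npm1 minus LT-HSC WT, 4 member calls became 2 with a row mean of at least 100, 1 with no filter on low values or with gene bounds not extended, 23 with library total scaling, 0 with cyclic loess and 0 with the enrichment covariate, 7 without both MPP3 Dnmt3a libraries, and 2 to 7 when 1 library was left out. All calls there were 3501 in the main analysis, 0 to 8905 over the alternatives. For LT-HSC Dnmt3a;Npm1 minus LT-HSC Npm1, 4 became 2 with a row mean of at least 100 or gene bounds not extended, 0 with no filter, 0 with cyclic loess and 0 with the covariate, and 0 to 6 when 1 library was left out (all calls 1007, range 0 to 2953). For MPP3 minus LT-HSC, 0 became 1 with a pseudocount of 16, 1 with library total scaling, 1 without both MPP3 Dnmt3a libraries and 0 to 3 when 1 library was left out (all calls 82, range 0 to 341). For MPP3 Dnmt3a minus MPP3 WT leaving out 1 library gave 0 to 3 (all calls 0, range 0 to 490), and for the Dnmt3a effect in MPP3 minus that in LT-HSC 0 to 1 (all calls 0, range 0 to 12). The range of all calls was 0 to 51 for MPP3 WT minus LT-HSC WT (0), 0 to 531 for LT-HSC Dnmt3a;Npm1 minus LT-HSC WT (2) and 0 to 1 for MPP3 Npm1 minus MPP3 WT (0). The causes were not tested.

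Replicate letters are shared across groups. Deviations of same-lettered libraries had r of -0.295 (LT-HSC WT and MPP3 WT) to 0.431 (MPP3 Npm1 and MPP3 WT) over 15 group pairs. What same-lettered libraries share beyond the letter was not tested. With the replicate block, member calls in LT-HSC Npm1 minus LT-HSC WT were 2 and all calls 2840, and in LT-HSC Dnmt3a;Npm1 minus LT-HSC Npm1 3 and 416. With a replicate block in which the LT-HSC letters were crossed, chosen after seeing the data, they were 10 and 5788, and 5 and 2949.

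The depth in reads behind a value is unknown, 6 groups had 2 libraries and 2 had 1, and a count of 0 calls does not show that accessibility was alike.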
